A study of Homo sapiens with 6 samples.

Results

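The genes examined here are the 8 that carry out and control the opening steps of branched-chain amino acid breakdown, taken by gene name from the 58735 genes of the deposited tables. They are the transaminases BCAT1 and BCAT2, the subunits BCKDHA, BCKDHB, DBT and DLD of the branched-chain keto acid dehydrogenase complex, and the kinase BCKDK and phosphatase PPM1K that control it. All 8 were found, and 7 had enough counts to be tested. RNA sequencing of polyadenylated RNA was done on MOLT-3 cells, an established human line of T-cell acute lymphoblastic leukaemia, given compound E (3 libraries) or DMSO, the solvent (3 libraries). Compound E is a gamma-secretase inhibitor, which stops the release of the active intracellular part of NOTCH receptors. The study compared the 2 groups to find genes controlled by NOTCH1 that bear on chemosensitivity. MOLT-3 is 1 line, and no dose or duration of treatment was stated. Nothing in the labels ties the replicates to separate cultures, so p-values measure the spread between these libraries, which may be technical.

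Leucine, isoleucine and valine are broken down by a shared pair of steps. A transaminase, cytosolic (BCAT1) or mitochondrial (BCAT2), moves the amino group to 2-oxoglutarate and so makes glutamate and a branched-chain keto acid, and the reaction is reversible. The mitochondrial dehydrogenase complex then commits the keto acid to breakdown by an irreversible oxidative decarboxylation, after which the 3 amino acids follow separate routes. BCAT1 is low in most adult tissues and is known for high levels in several leukaemias and solid tumours.

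Library totals were 18154037 to 18973990 counts with compound E and 17316138 to 19845114 with DMSO. The NOTCH targets HES4, DTX1, HES1, NOTCH3 and MYC, listed to see whether the inhibitor acted, were all lower with compound E. Their log2 fold changes were -4.90 to -0.84, where 19.4% of all tested genes were called lower. This list was chosen with earlier results of these data known, so it is not an independent check. All 8 T-lymphoblast markers were tested, with 3 of them higher and 5 lower in the treated cells. Their summed FPKM (counts scaled for exon length and depth) was 856 to 880 with compound E and 718 to 738 with DMSO. RAG1, with the largest rise, stood at 202 ± 4.46 FPKM with compound E and 69.3 ± 1.10 FPKM with DMSO (SD, n = 3 each). The higher sum is therefore not a rise of the markers as a set. The B-cell genes MS4A1 and PAX5 had 0 counts in every library, and the summed FPKM of the myeloid, erythroid, epithelial and fibroblast lists was at most 1.26 in any library. CD79A, a B-cell receptor component, was present at 9.03 ± 0.387 FPKM with compound E and 8.68 ± 0.598 FPKM with DMSO (SD, n = 3 each). The part of these levels in the results was not tested.

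BCAT1 had the largest change of the members. In CPM (counts scaled to library depth with TMM factors) it stood at 59.5, 61.3 and 55.9 in the compound E libraries, against 218, 206 and 205 in the DMSO libraries. Every compound E library lay below every DMSO library, and the spread within each group was small beside the gap. The fall was 3.56-fold, a log2 fold change of -1.83 ± 0.0376 (SE; 95% interval -1.91 to -1.76; adjusted p = 2.66e-32, from edgeR's quasi-likelihood F-test, Benjamini-Hochberg over the 16926 genes tested). It kept its call in all 17 alternative analyses, where the log2 fold change lay between -1.86 and -1.64. Of all tested genes 2.63% were called at least 2-fold lower, and 124 had a lower log2 fold change than BCAT1. In RNA from a whole culture, fewer cells that express a gene and less RNA per cell cannot be told apart.

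Of the 7 tested members 6 were called, 5 lower and 1 higher, where 38.3% of all tested genes were called, 18.9% higher and 19.4% lower. Outside BCAT1 every change was small. The median absolute log2 fold change was 0.16 over the 6 tested members other than BCAT1 and 0.17 over all tested genes, and the median signed value was -0.12 over the 7 members and -0.00336 over all tested genes. The groups did not overlap in 5 of the 7 members, while this held for 46.8% of all tested genes. The count of called members depended on single libraries and on the test. It was 3 without compound E replicate 1 and 3 without DMSO replicate 1. DESeq2 also called 3 members, against a background of 25.2%.

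**Figure D1:**
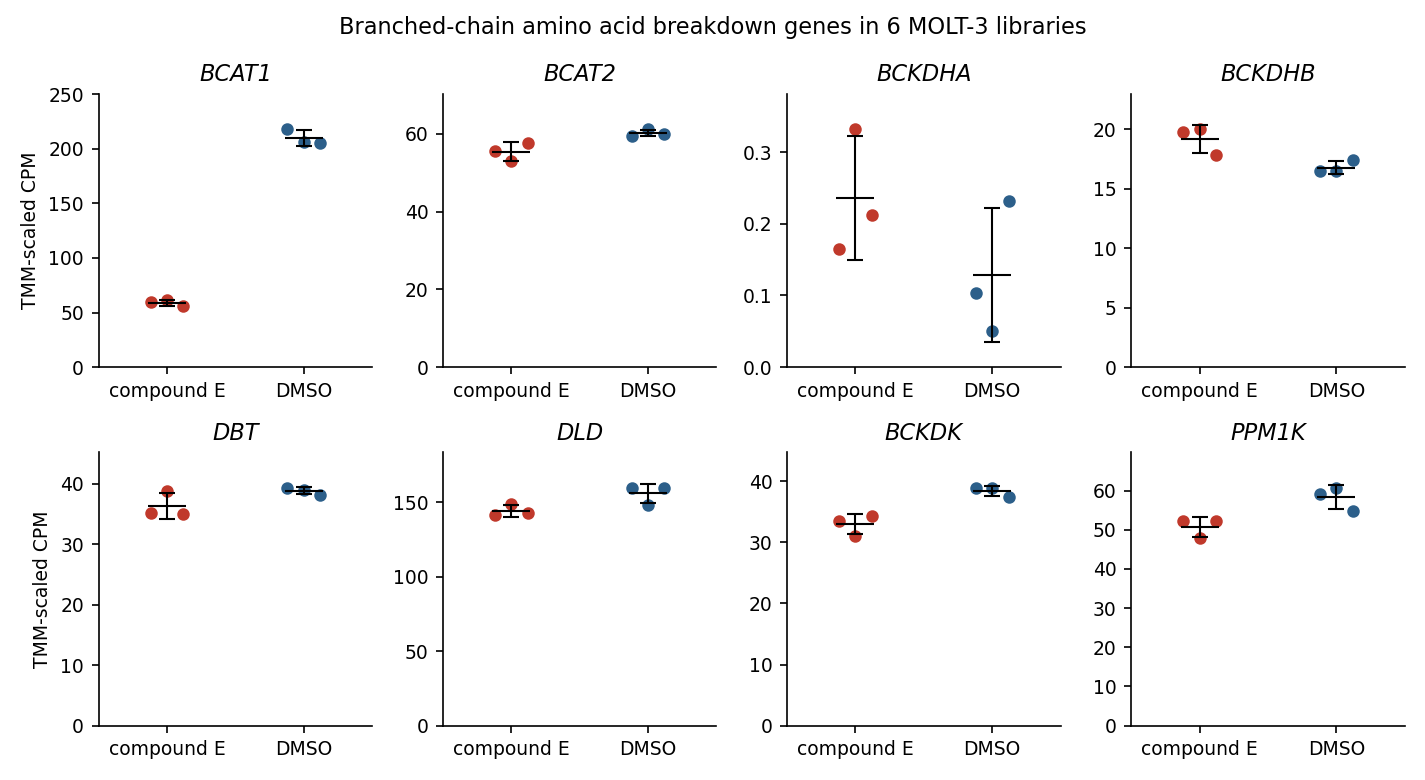
TMM-scaled CPM of the 8 genes in each library, with compound E (red) left of DMSO (blue). Dots are libraries, the black bar and whiskers are the mean and SD of 3 libraries, and each panel has its own axis starting at 0. BCAT1 is the one gene with a wide gap, 58.9 CPM on average with compound E and 209.8 with DMSO, and BCKDHA is near 0 in both groups.

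BCAT1 (ENSG00000060982) lies on the minus strand of chromosome 12, from 24810022 to 24949459 on GRCh38, and its counts are summed over 11775 exon bases from transcripts with several starts. RefSeq lists 5 start windows for it, each holding a transcript start and the bases just before it, on GRCh38.p14. The windows were searched on both strands for 3 motifs: CACGTG, the E-box bound by MYC and its relatives; TGATGNAA, the core of the C/EBP-ATF element through which ATF4 acts when amino acids run short; and TGGGAA, the core of sites bound by RBPJ, the DNA-binding partner of NOTCH. None of the 3 motifs contains another. The window at chr12:24949052-24949351 held both of the first 2 motifs. Over all 35116 RefSeq windows of this length, 7.26% held CACGTG, 3.62% held TGATGNAA and 0.179% held both. These are shares of single windows. A gene with 5 windows, such as BCAT1, has more room for a match than they show. The stretches below are shown because they carry these matches at a gene that fell, with the motif in capitals, read 5′ to 3′ on the strand of the gene.
BCAT1, E-box, chr12:24949070-24949099: aatccagcccgcCACGTGtactcgccgccg
BCAT1, C/EBP-ATF core, chr12:24949131-24949160: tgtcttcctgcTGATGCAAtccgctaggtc
The first match began 15 bases into the transcript of this RefSeq start, and the C/EBP-ATF match lay 48 to 41 bases before it. In GENCODE release 29 both stretches fall in the 5′ untranslated part of the first exon of the longest transcript, BCAT1-201. TGGGAA was found once, in reverse, in the window at chr12:24902173-24902472, and 24.0% of all windows held it. A match of letters is a description and does not show binding.

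BCAT2, the mitochondrial transaminase, had 55.6, 52.9 and 57.6 CPM with compound E and 59.5, 61.2 and 60.0 CPM with DMSO. Its compound E libraries all lay below its DMSO libraries, by little. The log2 fold change was -0.12 ± 0.0451 (SE; edgeR adjusted p = 0.0323), a call that was lost in 10 of 17 alternatives, among them DESeq2, with adjusted p between 0.0127 and 0.177. Leaving out compound E replicate 1 (adjusted p = 0.0692), compound E replicate 2 (0.177), DMSO replicate 1 (0.0556), DMSO replicate 2 (0.115) or DMSO replicate 3 (0.0678) ended it in edgeR. BCAT2 lies at chr19:48795062-48811029, minus strand.

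The balance of the 2 transaminase transcripts differed between the groups. Per length, BCAT1 stood at 5.03, 5.19 and 4.73 FPKM with compound E, against 18.4, 17.3 and 17.3 FPKM with DMSO. BCAT2 stood at 12.1, 11.6 and 12.6 FPKM with compound E, against 13.0, 13.3 and 13.0 FPKM with DMSO. BCAT1 therefore made up 29.3%, 30.9% and 27.3% of the summed FPKM of the pair in the compound E libraries, against 58.6%, 56.6% and 56.9% in the DMSO libraries. By FPKM, BCAT1 was the less abundant of the pair in each compound E library and the more abundant in each DMSO library. The order with compound E depends on the lengths used, 11775 exon bases for BCAT1 and 4553 for BCAT2, each summed over all transcripts. In CPM, not scaled for length, BCAT1 had 59.5, 61.3 and 55.9 with compound E, and BCAT2 had 55.6, 52.9 and 57.6. With DMSO, BCAT1 was the higher in CPM too, at means of 209.8 and 60.2. The summed FPKM of the pair averaged 17.1 ± 0.289 with compound E and 30.8 ± 0.531 with DMSO (SD, n = 3 each). The log2 ratio of BCAT1 to BCAT2 averaged -1.28 ± 0.129 with compound E and 0.43 ± 0.0641 with DMSO (SD, n = 3 each), a difference of -1.71 (exact two-sided permutation test, p = 0.10, adjusted p = 0.30 over 3 ratios). With 3 libraries against 3, 0.10 is the smallest p this test can give.

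**Figure D2:**
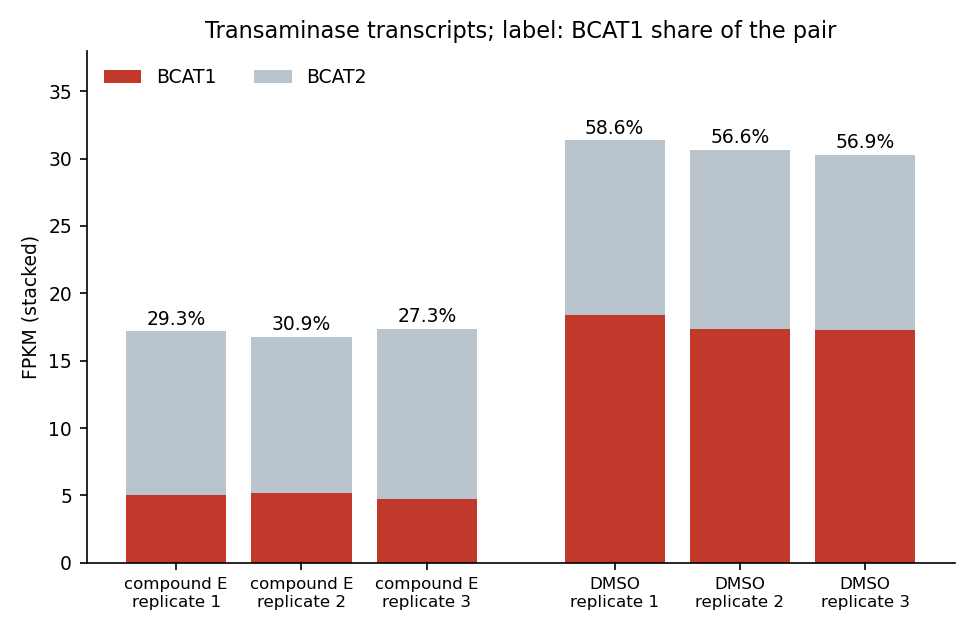
Stacked FPKM of BCAT1 (red) and BCAT2 (grey) in each library, with the 3 compound E libraries on the left and the 3 DMSO libraries on the right. The label over each bar is the share of BCAT1 in the pair, 27.3% to 30.9% with compound E and 56.6% to 58.6% with DMSO; the BCAT2 part is of similar height in all bars.

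The dehydrogenase complex joins 3 enzymes: a decarboxylase made of BCKDHA (alpha) and BCKDHB (beta) subunits, the lipoamide acyltransferase core DBT, and DLD, the dihydrolipoamide dehydrogenase that other 2-oxoacid complexes share. None of its tested transcripts changed by as much as BCAT1. BCKDHB was the 1 member called higher, with 19.7, 20.02 and 17.9 CPM with compound E and 16.5, 16.5 and 17.4 CPM with DMSO. The lowest compound E library lay just above the highest DMSO library. The log2 fold change was 0.19 ± 0.0747 (SE; 95% interval 0.04 to 0.35; edgeR adjusted p = 0.0366), and the call was lost in 11 of 17 alternatives (adjusted p from 0.0156 to 0.163), with the replicate number as a block among them. It ended without compound E replicate 1 (adjusted p = 0.115), compound E replicate 2 (0.131), DMSO replicate 1 (0.0974) or DMSO replicate 2 (0.105). Against DBT, the FPKM of BCKDHB was 1.47 ± 0.0789 times as high with compound E and 1.201 ± 0.0565 times as high with DMSO (SD, n = 3 each).

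DBT had 35.1, 38.7 and 35.0 CPM with compound E and 39.3, 39.0 and 38.1 CPM with DMSO, and compound E replicate 2 lay among the DMSO libraries. Its log2 fold change of -0.10 (95% interval -0.21 to 0.01; edgeR adjusted p = 0.154) did not pass, and it passed narrowly without compound E replicate 2 (adjusted p = 0.0496; 0.0496 to 0.495 over the alternatives). DLD, the most abundant member per length, had 141, 149 and 143 CPM with compound E and 160, 148 and 160 CPM with DMSO. DMSO replicate 2 lay among the compound E libraries, so the groups overlapped. The log2 fold change of DLD was -0.11 ± 0.0341 (SE; edgeR adjusted p = 0.00931), lost in 7 of 17 alternatives (adjusted p from 0.00229 to 0.184), including DESeq2 and the fits without compound E replicate 1 (0.0634), DMSO replicate 1 (0.0770) or DMSO replicate 3 (0.0702). On GRCh38, BCKDHB lies at chr6:80106647-80346270 (plus strand), DBT at chr1:100186919-100249834 (minus strand) and DLD at chr7:107890970-107931730 (plus strand).

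BCKDHA could not be measured in these tables. It had 3, 6 and 4 counts with compound E and 2, 1 and 4 counts with DMSO, too few to be tested. Its partner in the same enzyme, BCKDHB, had 336 to 362 counts with compound E and 301 to 327 with DMSO. BCKDHA lies on the plus strand of chromosome 19, 41397460 to 41425005. A second annotated protein-coding gene, AC011462.1, runs over it on the same strand from 41350853 to 41425001 and covers 63.8% of its exon bases and 82.9% of its coding bases. AC011462.1 had 0 counts in every library. How the counting treated reads that match 2 genes was not stated, and the part of this overlap in the low counts was not tested. Over the other 7 members, at most 3.90% of exon bases were shared with another gene on either strand.

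The kinase and the phosphatase of the complex fell by similar small amounts. BCKDK, which phosphorylates the alpha subunit and thereby switches the complex off, had 33.5, 31.1 and 34.2 CPM with compound E and 38.8, 38.9 and 37.4 CPM with DMSO. PPM1K, the phosphatase that reverses this, had 52.2, 47.8 and 52.3 CPM with compound E and 59.3, 60.8 and 54.8 CPM with DMSO. In both genes the groups did not overlap. The log2 fold change was -0.22 ± 0.0548 for BCKDK (SE; edgeR adjusted p = 0.00128) and -0.20 ± 0.0488 for PPM1K (SE; edgeR adjusted p = 0.000965). BCKDK kept its call in all 17 alternatives, and PPM1K lost it in 3, the limma fits on FPKM (adjusted p from 0.000261 to 0.124 over all 17). The FPKM of BCKDK was 1.91 ± 0.0178 times that of PPM1K with compound E and 1.93 ± 0.0617 times with DMSO (SD, n = 3 each). The difference of their log2 ratio was -0.02 (exact two-sided permutation test, p = 0.60, adjusted p = 0.60 over 3 ratios), which does not show that the ratios were equal. BCKDK lies at chr16:31106107-31112791 (plus strand) and PPM1K at chr4:88257620-88284769 (minus strand).

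Per length, BCAT1 changed its place among the members most. With compound E the mean FPKM was 27.1 for DLD, 12.1 for BCAT2, 8.47 for BCKDK, 4.98 for BCAT1, 4.70 for BCKDHB, 4.44 for PPM1K and 3.20 for DBT. With DMSO it was 29.1 for DLD, 17.7 for BCAT1, 13.1 for BCAT2, 9.82 for BCKDK, 5.08 for PPM1K, 4.09 for BCKDHB and 3.40 for DBT. By FPKM, BCAT1 thus stood below BCAT2 and BCKDK with compound E and above both with DMSO. BCKDHB stood above PPM1K with compound E and below it with DMSO. With compound E the libraries of BCAT1 (4.73 to 5.19 FPKM) overlapped those of BCKDHB (4.37 to 4.90), and BCKDHB overlapped PPM1K (4.19 to 4.58). No other neighbours in either order overlapped. These orders depend on the exon lengths used, 11775 bases for BCAT1, 3873 for BCKDK, 4071 for BCKDHB and 11371 for PPM1K. In CPM, not scaled for length, BCAT1 stood above BCKDK with compound E too, at means of 58.9 and 32.9. BCKDHB stood below PPM1K in CPM in both groups, at 19.2 and 50.8 with compound E and 16.8 and 58.3 with DMSO.

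After the dehydrogenase, separate mitochondrial enzymes take the products of leucine to acetyl-CoA and acetoacetate, of isoleucine to acetyl-CoA and propionyl-CoA, and of valine to propionyl-CoA. Over the 19 genes listed for these routes and for the conversion of propionyl-CoA to succinyl-CoA, all tested, 2 rose, 6 fell and 11 did not pass in edgeR, with a median log2 fold change of -0.12. None reached 2-fold, and the largest absolute log2 fold change was 0.34. Over all tested genes 38.3% were called, 18.9% higher and 19.4% lower, which is the background for these genes and the lists below. Of the 5 genes listed for the leucine route 0 passed in edgeR, with IVD at 0.06, MCCC1 at -0.12, MCCC2 at 0.03 and AUH at -0.19 on the log2 scale; 2 had an unadjusted p under 0.05, DESeq2 and limma-voom called 0, and 1 (MCCC1) passed without DMSO replicate 2.

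The isoleucine and valine routes held most of these calls, with 2 of 8 genes higher and 5 lower, where 38.3% of all tested genes were called. The lower calls were 2 in DESeq2, 4 without compound E replicate 3 and 3 without any other single library. ACADSB, the short/branched-chain acyl-CoA dehydrogenase of the isoleucine route, had 48.1, 44.8 and 45.5 CPM with compound E and 36.8, 36.8 and 37.7 CPM with DMSO (log2 fold change 0.31, edgeR adjusted p = 3.41e-06). ACAD8, isobutyryl-CoA dehydrogenase, its counterpart in the valine route, went the other way, with 96.7, 97.8 and 97.4 CPM with compound E and 125, 117 and 126 CPM with DMSO (log2 fold change -0.34, edgeR adjusted p = 5.29e-10). The groups did not overlap in either gene. HSD17B10, a dehydrogenase of the isoleucine route, rose (0.24). ACAT1, the thiolase that ends the isoleucine route (-0.24), HIBADH (-0.24), HIBCH (-0.15) and ALDH6A1 (-0.16) of the valine route fell, and ECHS1, a hydratase of both, stood at -0.00018 and did not pass. Of the 6 propionate genes 1 fell, PCCB, a subunit of propionyl-CoA carboxylase (-0.20), and 2 (PCCB and MMAB, of cobalamin metabolism) passed without DMSO replicate 1. PCCB shares 22.1% of its exon bases with a gene on the other strand.

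**Figure D3:**
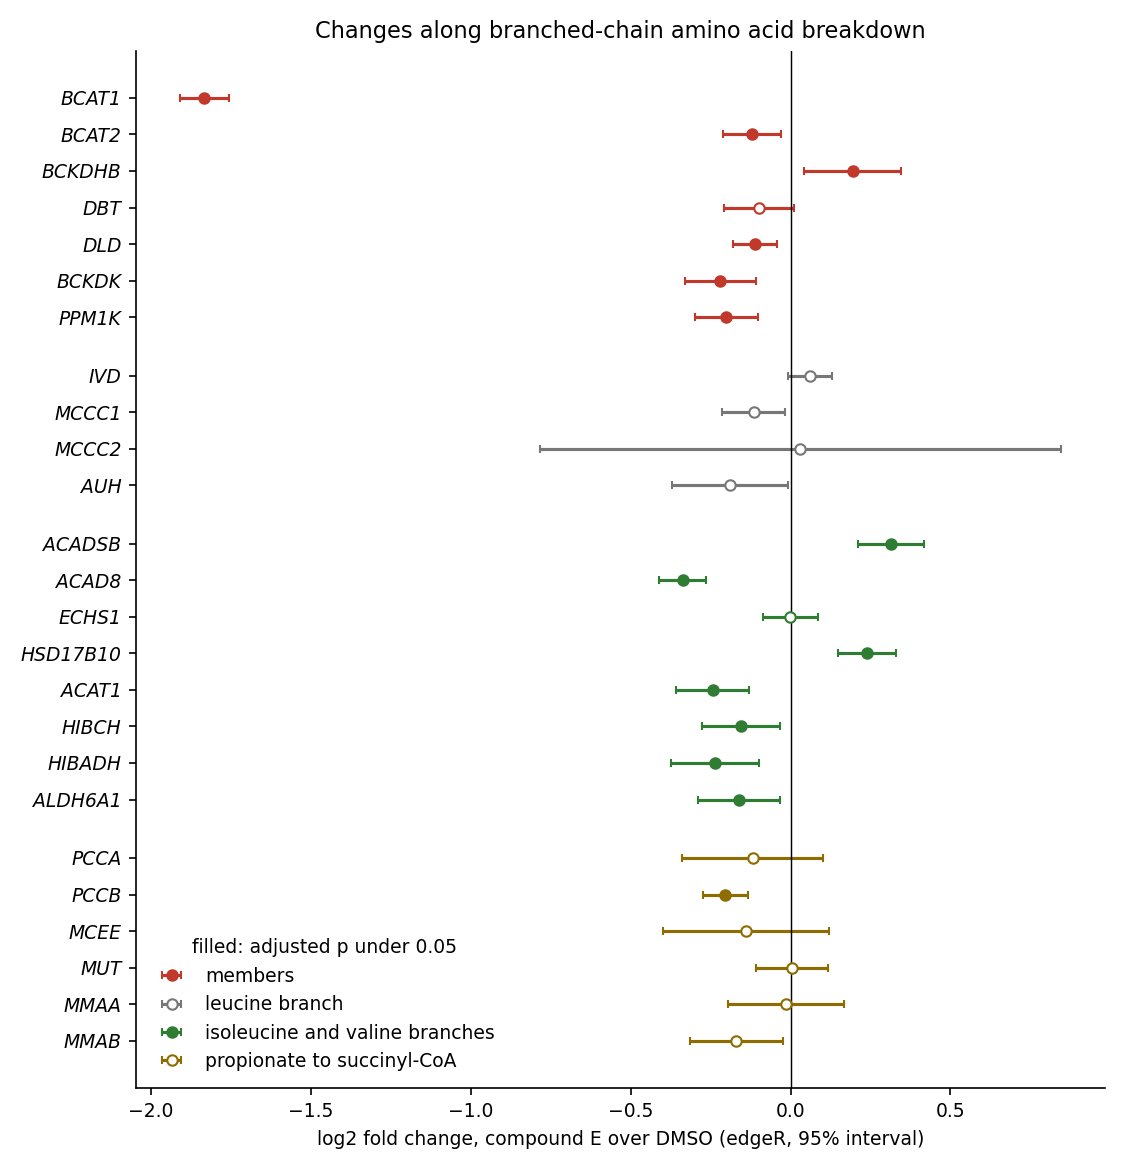
Log2 fold change (compound E over DMSO, edgeR) with its 95% interval for the 7 tested members and the genes of later steps; filled symbols have an adjusted p under 0.05. BCAT1 stands alone at -1.83, the genes of later steps lie between -0.34 and 0.31, and the wide interval of MCCC2 goes with its low counts.

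MCCC2 stood out by its level. It encodes the beta subunit of methylcrotonyl-CoA carboxylase, the biotin enzyme of leucine breakdown, whose alpha subunit is MCCC1. MCCC2 had 15, 7 and 11 counts with compound E and 8, 13 and 12 counts with DMSO, or 0.0986 ± 0.0357 FPKM and 0.0965 ± 0.0247 FPKM (SD, n = 3 each). MCCC1 stood at 11.1 ± 0.176 FPKM with compound E and 11.99 ± 0.730 FPKM with DMSO (SD, n = 3 each). MCCC2 was low in both groups, and 0 of its exon bases were shared with another annotated gene. Its log2 fold change was 0.03 (95% interval -0.78 to 0.84), so a change of either sign within that interval is compatible with these counts.

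DLD serves other complexes too, and those were compared as relatives of the dehydrogenase. Of 11 tested genes of the pyruvate, 2-oxoglutarate and 2-oxoadipate dehydrogenases and of glycine cleavage, 1 rose and 4 fell in edgeR (median log2 fold change -0.07). The acyltransferase cores DLAT of pyruvate dehydrogenase (-0.13) and DLST of 2-oxoglutarate dehydrogenase (-0.11) fell, as did PDHX, which binds DLD in the pyruvate complex (-0.17). GLDC, the glycine decarboxylase, fell at low level (-0.76), with 40, 22 and 40 counts with compound E and 58, 77 and 43 with DMSO. DHTKD1, of 2-oxoadipate dehydrogenase, rose (0.09). This count was unstable: DESeq2 called 0 of the 11 and gave 3 an unadjusted p under 0.05, limma-voom called 4, edgeR called 1 to 6 when single libraries were left out, and the counts were 3 without compound E replicate 1, 2 without compound E replicate 3, 1 without DMSO replicate 1, 2 without DMSO replicate 2 and 2 without DMSO replicate 3.

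Of 6 tested regulators of pyruvate dehydrogenase, the complex with the same kind of control, 1 rose and 2 fell. The phosphatase catalytic subunits PDP1 and PDP2 went opposite ways, at log2 fold changes of 0.29 and -0.33, and the kinase PDK1 fell (-0.23). DBT needs bound lipoate, and of 3 lipoylation genes LIAS, lipoyl synthase, fell (-0.31), while LIPT1 (-0.36) and LIPT2 (0.08) did not pass. Without compound E replicate 3, LIAS and LIPT1 were called.

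Several genes around the transaminase step were more than 2-fold lower. Of 9 tested genes that make or use glutamate, 1 rose and 5 fell, where 38.3% of all tested genes were called. The largest falls were in 2 other transaminases, GPT2, the mitochondrial alanine transaminase (-2.06; edgeR adjusted p = 1.74e-29), and PSAT1, the phosphoserine transaminase (-1.93; edgeR adjusted p = 1.37e-34). GPT2 had 21.0, 20.4 and 21.8 CPM with compound E and 90.7, 88.2 and 84.0 CPM with DMSO. The aspartate transaminases moved little, GOT2 at -0.14 (called) and GOT1 at -0.07 (not called). GLUD1, glutamate dehydrogenase, fell (-0.14), GPT fell (-0.58) and OAT, ornithine transaminase, rose (0.14). GLUD2, a near-identical copy of GLUD1, had 3 to 13 counts with compound E and 6 to 13 with DMSO, against 2428 to 2561 counts of GLUD1 with compound E and 2606 to 2991 with DMSO; reads shared between the copies were not measured. The call of OAT was lost in DESeq2, without compound E replicate 2 and without DMSO replicate 2, which left 0 genes of the list called higher. With single libraries left out, 5 to 7 genes of the list were called, 0 to 2 of them higher.

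All 8 tested transporters of branched-chain amino acids were called, 5 lower and 3 higher, where 38.3% of all tested genes were called. SLC7A5 and SLC3A2, the 2 chains of the main large neutral amino acid exchanger, fell by 1.57 and 1.37 on the log2 scale. SLC43A1, a facilitated transporter of the same substrates, had 2.52, 3.10 and 2.34 CPM with compound E and 16.5, 17.3 and 16.8 CPM with DMSO (log2 fold change -2.67; edgeR adjusted p = 4.13e-21). SLC7A8 fell at low level (-1.77, with 1.03 ± 0.265 CPM with compound E and 3.52 ± 0.239 CPM with DMSO; SD, n = 3 each), as did SLC7A7 (-0.46). In the other direction, SLC43A2, a relative of SLC43A1, rose 1.46-fold, and SLC25A44, the carrier that brings branched-chain amino acids into mitochondria, rose 1.38-fold. SLC25A44 had 77.9, 73.9 and 78.3 CPM with compound E and 56.3, 54.1 and 55.9 CPM with DMSO, with no overlap (edgeR adjusted p = 7.46e-12). SLC7A6 rose too (0.16), but 55.6% of its exon bases are shared with a gene on the other strand.

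Among the 6 tested tRNA synthetases that use these amino acids, the cytosolic isoleucine and leucine enzymes fell, IARS at -1.02 and LARS at -0.74, while the valine enzyme VARS stood at 0.01 and did not pass. The mitochondrial enzymes LARS2, IARS2 and VARS2 did not pass, at -0.06 to -0.01. Of 8 tested genes of leucine sensing by mTORC1, 3 rose and 2 fell, where 38.3% of all tested genes were called. SESN2, a cytosolic leucine sensor, had 17.3, 14.9 and 16.5 CPM with compound E and 69.1, 77.3 and 72.0 CPM with DMSO (log2 fold change -2.16; edgeR adjusted p = 4.54e-28). Its relatives SESN1 (0.31) and SESN3 (0.19) and SAR1B, another leucine sensor (0.21), rose, and RRAGD, a RAG GTPase, fell (-0.31).

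**Figure D4:**
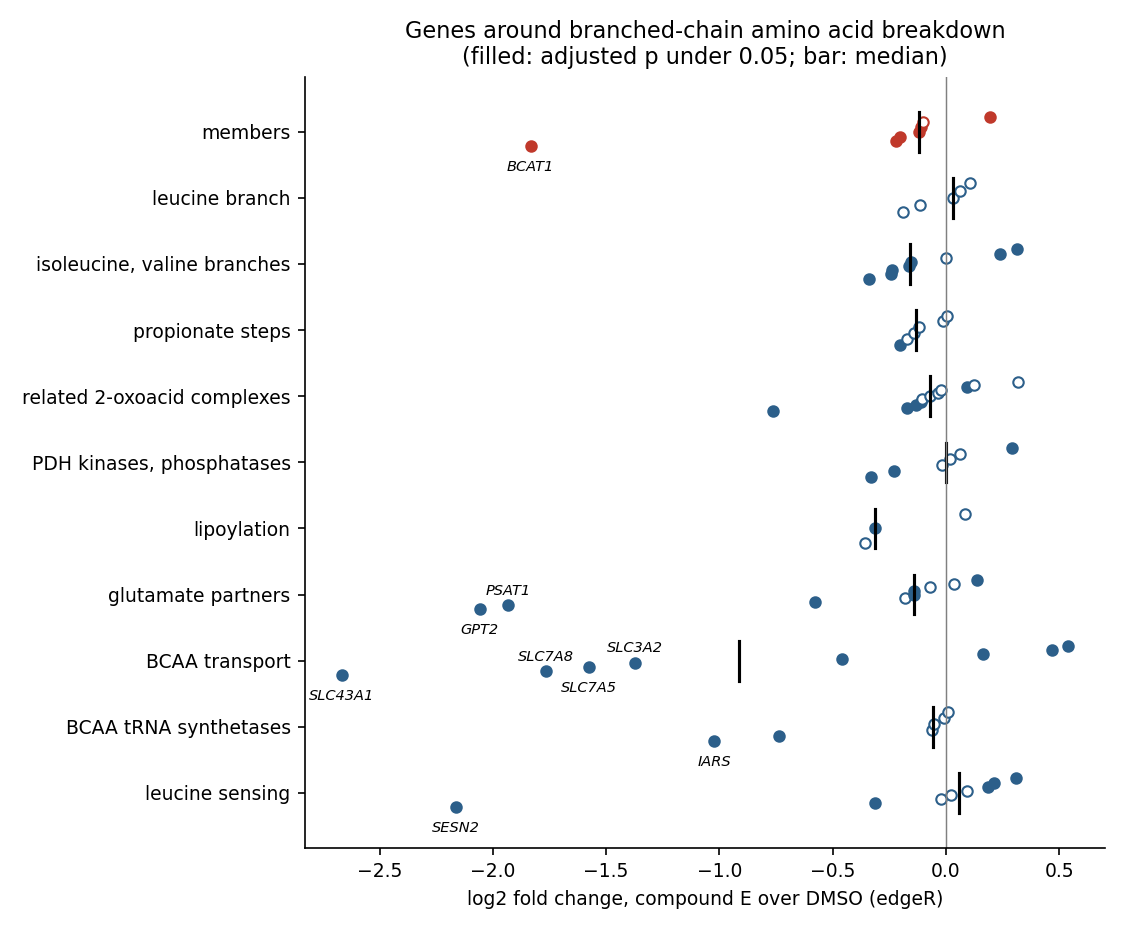
Log2 fold change (compound E over DMSO, edgeR) of each tested gene by group, with members in red and surrounding genes in blue; filled symbols have an adjusted p under 0.05, the black bar is the group median, and genes beyond 2-fold are named. Changes beyond 2-fold are BCAT1 and genes of glutamate transamination, transport, tRNA charging and leucine sensing; none is in the later breakdown steps or the related complexes.

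Across the 6 libraries, the protein-coding genes most like BCAT1 by Pearson correlation of log2 CPM, among 10116 with a mean of at least 5 CPM, were ELMO1, a RAC activator subunit, PSAT1, SUCLG2, a subunit of succinyl-CoA ligase, the cystine transporter SLC7A11 and the cationic amino acid transporter SLC7A1. Their correlations were all above 0.99, and 297 genes passed that level, because the 6 libraries fall into 2 groups that differ in each of these genes. Their log2 fold changes ranged from -3.65 (SLC7A11) to -0.56 (SUCLG2), so the likeness is one of pattern and not of size. Start windows were searched for the same motifs in these 5 genes and in the list genes called at least 2-fold lower, where RefSeq windows were at hand. The number of windows differed, with 4 for ELMO1 and SLC7A8, 3 for SLC3A2 and 1 for IARS and SLC7A1. The C/EBP-ATF core was found in ELMO1, SLC7A1, SLC3A2 and IARS besides BCAT1, and CACGTG in IARS, SLC7A5, SLC43A1 and SLC7A8. TGGGAA was found in SLC7A5, SLC3A2 and SLC43A1, and the windows of PSAT1, SUCLG2 and SESN2 held none of the 3 motifs. The stretches are shown because IARS carries, in reverse (TTGCATCA), the same 8 letters as BCAT1, and like BCAT1 also an E-box in the same window, while SLC7A1 differs from it within the core.
IARS (IARS1 in RefSeq), C/EBP-ATF core in reverse, chr9:92293692-92293721: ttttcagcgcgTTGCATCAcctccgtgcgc
IARS, E-box, chr9:92293866-92293895: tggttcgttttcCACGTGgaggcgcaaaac
SLC7A1, C/EBP-ATF core, chr13:29595663-29595692: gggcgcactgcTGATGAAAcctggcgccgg
The members other than BCAT1 with a RefSeq window, BCKDHA, BCKDHB, DBT, DLD, BCKDK and PPM1K, held neither CACGTG nor TGATGNAA there, and TGGGAA was found in DBT, DLD and PPM1K. DLD had 2 windows and the rest of these 1 each, against 5 for BCAT1. Over all windows 7.26% held CACGTG, 3.62% TGATGNAA and 24.0% TGGGAA. A lack of the first 2 motifs in so few windows therefore does not set BCAT1 apart.

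Around BCAT1, 27 other annotated genes lay within 500 kb, of which 6 were tested. Of these 3 were called lower, where 19.4% of all tested genes were. SOX5, a transcription factor gene whose near end is 247 kb away, had 15.0, 13.6 and 14.3 CPM with compound E and 37.4, 41.5 and 39.6 CPM with DMSO (log2 fold change -1.47; edgeR adjusted p = 5.16e-21). LRMP, the nearest tested gene at 54.9 kb, fell by 0.33 on the log2 scale, and AC023510.2, an antisense gene that lies within the span of LRMP, fell by 0.72. ETFRF1 (-0.11) and AC087239.1 (0.63) did not pass. The 3 annotated genes that overlap BCAT1 itself, AC026310.3, AC023796.2 and AC026310.2, had at most 6 counts in any library, against 1052 to 1109 counts of BCAT1 with compound E and 3551 to 4207 with DMSO.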

How the data were processed

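The count table deposited by the authors holds whole-number, unnormalised counts per gene, and the FPKM table deposited by the authors scales them by the exon length of the gene and 1 depth factor per library, checked on the values. The submitters' processing notes name HISAT2 2.0.5, featureCounts 1.5.0-p3 and DESeq2 1.16.1, with no role. How strand, genome build and ambiguous reads were handled was not stated. All 58735 identifiers had the same position and name in GENCODE release 29 (GRCh38).

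Counts were filtered by filterByExpr (16926 genes kept), scaled by TMM and tested with edgeR 4.0.16 in R 4.3.3 (quasi-likelihood F-test, treatment as the only term, Benjamini-Hochberg over all tested genes, called under 0.05). The standard error is the log2 fold change divided by the square root of F. Counts were simulated for 16926 genes with 200 of them changed. Of genes changed 1.2-fold 46.9% were recovered, and of those changed 4-fold 100%, and 5.33% of 150 calls were false. In the data 38.3% of tested genes were called, a far larger share than was simulated. The simulation checks that the fit works, and its shares do not carry over to this comparison. Ratios of FPKM were tested by exact permutation. Alternatives were other scalings (RLE, library size, upper quartile), filters, DESeq2 1.42.0, limma-voom and limma on log2 FPKM (limma 3.58.1, pseudocounts 1 and 0.1), a replicate block and each library left out. Named genes are the 8 members, list genes (the called genes with the 4 smallest p in each list), genes overlapping a member or tested within 500 kb of BCAT1, and the 5 most correlated with BCAT1. Members and lists were chosen with earlier results of these data known. MCCC2 was singled out after its values were seen, as were the motifs searched. The values of some genes that enter the counts are not reported here. Promoter sequences are from RefSeq, GRCh38.p14.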

Additional observations from a re-analysis of the deposited data

How the results depend on the processing

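BCAT1 and BCKDK kept direction and call in all 17 alternatives. No tested member changed sign in any. The number of called genes was 5671 to 6068 (2838 to 3027 higher, 2833 to 3041 lower) with single libraries left out, 4517 with DESeq2 (2134 lower) and 4002 with limma on unfiltered FPKM (2128 higher, 1874 lower). The number of called members was 3 with DESeq2 (3 lower, 0 higher), 2 in each limma fit on FPKM (2 lower, 0 higher) and 3 to 6 with libraries left out (3 to 5 lower, 0 to 1 higher), and 0 were called higher with upper-quartile scaling, without a filter or with the replicate block. The cause was not tested.

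Without their call, the log2 fold change of BCAT2 was -0.11 with no filter, DESeq2 and limma on FPKM (both pseudocounts). That of BCKDHB was 0.18 with the upper quartile, 0.20 with no filter, DESeq2, the replicate block and a pseudocount of 0.1, and 0.16 with a pseudocount of 1. That of DLD was -0.10 with DESeq2 and limma on FPKM, and that of PPM1K was -0.16 with a pseudocount of 1 and -0.19 with 0.1. With libraries left out, the range was -0.15 to -0.087 for BCAT2, 0.17 to 0.25 for BCKDHB, -0.15 to -0.073 for DBT and -0.14 to -0.089 for DLD. The log2 ratio difference of BCKDK to PPM1K was -0.042 to 0.0037 with libraries left out, above 0 without DMSO replicate 3. That of BCKDHA to BCKDHB was 0.89, rests on 1 to 6 counts of BCKDHA per library, and was -0.11 with a pseudocount of 1 (0.37 to 1.43 with libraries left out).

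Calls in the leucine route were 1 with the upper quartile, the 5 CPM filter and limma on FPKM, and 0 to 1 with libraries left out. In the isoleucine and valine routes 4 were called with DESeq2. In the propionate steps 2 were called with the upper quartile and the 5 CPM filter, and 1 to 2 with libraries left out. In the related complexes 3 were called with no filter and the 5 CPM filter, 0 with DESeq2, 1 with limma on filtered FPKM, 0 unfiltered, and 1 to 6 with libraries left out. Of the lipoylation genes 0 were called with limma on FPKM and 1 to 2 with libraries left out, and of the leucine sensing genes 3 with limma on filtered FPKM and 2 unfiltered.

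Same-numbered libraries did not deviate together (correlations of -0.0191 to 0.0103), so the numbers are not taken to pair them. The replicate block gave 6138 called genes, and BCKDHB (adjusted p = 0.0507) was the 1 member to lose its call. For BCAT1 to BCAT2 the paired exact sign-flip test gave p = 0.25, its smallest possible value for 3 pairs.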
